A study of Mus musculus with 12 samples.

Results

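AMP-activated protein kinase (AMPK) was described at the transcript level through its 7 subunit genes, Prkaa1, Prkaa2, Prkab1, Prkab2, Prkag1, Prkag2 and Prkag3. They were taken by symbol from the 24061 gene symbols of the count tables, by no cut on their values but with earlier results of these data known. All 7 were listed in all 12 libraries, and all 7 passed the filter on low counts. The libraries were bulk poly(A) RNA of hearts from male C57BL/6J mice, 2 to 4 months old and fed chow. There were 6 HKII+/- mice, carrying a single functional copy of the gene for hexokinase II (Hk2), and 6 HKII+/+ mice. The kind of Hk2 allele is not described in the labels, and the loss is taken from the genotype name. Libraries keep the numbers of their titles, 11, 12, 16, 19, 20 and 22 for HKII+/- and 13, 14, 15, 17, 18 and 21 for HKII+/+. One library of each genotype, number 11 (HKII+/-) and number 13 (HKII+/+), carries a possible-outlier mark in the labels. Genotype tests were therefore run with all 12 libraries and with the 10 unmarked ones. Mean levels and correlations were taken over unmarked libraries. Libraries were counted as separate animals because their titles differ. The p-values measure the spread between libraries, which would be only technical if they were not separate animals.

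AMPK is a sensor of cellular energy. Each complex joins a catalytic alpha subunit, a scaffolding beta subunit that can also bind glycogen, and a gamma subunit whose CBS repeats bind AMP, ADP and ATP. When AMP rises relative to ATP, phosphorylation of a threonine in the activation loop of the alpha subunit, mainly by the kinase LKB1, switches the complex on, and it then restrains lipid and protein synthesis and favours fatty acid oxidation, glucose uptake and autophagy. Each subunit class has alternative genes: Prkaa1 and Prkaa2 for alpha, Prkab1 and Prkab2 for beta, and Prkag1, Prkag2 and Prkag3 for gamma. In the heart the complex is known for its part in the response to ischaemia, and mutations of Prkag2's human counterpart cause a cardiomyopathy with glycogen storage and ventricular pre-excitation.

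The subunit genes are spread over 5 chromosomes, and all are protein coding in the GENCODE vM21 annotation of GRCm38. Prkaa1 (ENSMUSG00000050697.9) lies on the plus strand at chr15:5143861-5181899 and Prkaa2 (ENSMUSG00000028518.8) on the minus strand at chr4:105029874-105109890. Prkab1 (ENSMUSG00000029513.14) is on the minus strand at chr5:116013586-116024508 and Prkab2 (ENSMUSG00000038205.12) on the plus strand at chr3:97658193-97673812. The gamma genes are all on minus strands: Prkag1 (ENSMUSG00000067713.7) at chr15:98812797-98831521, Prkag2 (ENSMUSG00000028944.14) at chr5:24862744-25100642 and Prkag3 (ENSMUSG00000006542.13) at chr1:74738922-74749221. Merged exons span 4655 bp for Prkaa1, 7969 bp for Prkaa2, 3066 bp for Prkab1, 5096 bp for Prkab2, 2175 bp for Prkag1, 6480 bp for Prkag2 and 3682 bp for Prkag3.

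The paralogs are similar enough that the separation of their reads was checked. The activation loops of the alpha subunits are shown because they hold the regulated threonine, whose codon is in capitals. Both windows are 51 nt of a single coding exon (Prkaa1 at chr15:5169943-5169993, plus strand, and Prkaa2 at chr4:105049357-105049407, minus strand), given 5′ to 3′ in the sense of the transcript.
Prkaa1 activation loop: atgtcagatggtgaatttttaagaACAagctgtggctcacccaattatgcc
Prkaa2 activation loop: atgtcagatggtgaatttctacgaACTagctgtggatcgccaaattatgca
They differ at 7 positions and are 86.3% identical. The longest stretch that the coding sequences of a pair share without a mismatch is shown for the alpha pair and the beta pair, since it bounds how long a read could match both genes perfectly.
Prkaa1 and Prkaa2 shared run: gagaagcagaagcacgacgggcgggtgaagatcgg
Prkab1 and Prkab2 shared run: ggagagcatcagtacaagttctt
The alpha run is 35 nt (chr15:5143908-5143942, plus strand, and chr4:105109758-105109792, minus strand) and the beta run 23 nt (chr5:116020408-116020430, minus strand, and chr3:97663619-97663641, plus strand). Among the gamma genes the longest such runs were 15 nt between Prkag1 and Prkag2, 17 nt between Prkag2 and Prkag3 and 11 nt between Prkag1 and Prkag3. Reads were 100 nt long, per the labels' protocols, so no read taken from these transcripts matches 2 subunit genes along its whole length without a mismatch. Overlap with antisense genes was larger. The antisense gene B130046B21Rik covers 950 bp, or 43.7%, of the merged exons of Prkag1, and Prkag2os2 and Prkag2os1 cover 12.3% and 2.19% of those of Prkag2. The strand setting of the counting is not given in the sources used here, and without it reads from a gene and its antisense partner cannot be told apart.

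Depth ran from 17263209 to 51556592 counts per library. The scaling factors (TMM, trimmed mean of M values) were 0.787 and 0.760 in the marked libraries and 0.992 to 1.09 in the others. Heart muscle markers (9 genes: Myh6, Myl2, Myl3, Tnnt2, Tnni3, Actc1, Ryr2, Pln and Mybpc3) summed to between 74057 and 102055 CPM in the unmarked libraries. CPM are counts scaled to a common library total. These sums match the labelled tissue. In these bulk samples, fewer cells of a type and less RNA per cell cannot be told apart. Hk2 averaged 292.3 ± 40.6 CPM in the 5 unmarked HKII+/- libraries and 509.0 ± 29.7 CPM in the 5 unmarked HKII+/+ libraries (SD), which is 57.5% of the HKII+/+ level, with no overlap (edgeR adjusted p = 0.0165). That call was lost when any 1 of 7 libraries (12, 15, 16, 17, 18, 19 or 20) was left out, with an edgeR adjusted p from 0.0522 to 0.0951, while the log2 fold change stayed between -0.88 and -0.76 over all 10 such fits. In the library labelled HKII+/- replicate 11, Hk2 was at 568.2 CPM, above all 5 unmarked HKII+/+ libraries. The other marked library, HKII+/+ replicate 13, was also above all 10 unmarked libraries, at 652.6 CPM. With no scaling factor, replicate 11 was at 447.0 CPM and replicate 13 at 496.0, beside 493.9 in the lowest unmarked HKII+/+ library. Directions drawn from replicate 11 rest on its label.

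Hearts held transcripts of all 7 subunits, at levels that spanned more than 1 order of magnitude. Levels of different genes are compared in RPKM, which is the CPM per kilobase of merged exon, over the 10 unmarked libraries (mean ± SD, n = 10). Prkag1, a nucleotide-binding gamma subunit, was highest at 47.7 ± 2.24 RPKM, and Prkaa2, a catalytic subunit, followed at 27.8 ± 2.88. The beta scaffolds came next, with Prkab2 at 15.6 ± 1.05 and Prkab1 at 12.3 ± 1.52 RPKM. Their ranges, 14.1 to 17.1 and 9.73 to 14.98 RPKM, overlapped, although Prkab2 was the higher of the pair in 10 of 10 libraries. Prkag2 followed at 7.81 ± 1.57 RPKM (5.23 to 9.62) and Prkaa1 at 5.87 ± 0.587 (4.95 to 6.68), again with overlapping ranges, and Prkag2 was the higher in 8 of 10 libraries. Prkag3, known mainly from fast skeletal muscle, was lowest at 1.102 ± 0.117 RPKM. Ranges of all other neighbours in this order were separate, although the lowest Prkab1 value (9.73) and the highest Prkag2 value (9.62) nearly touched. The order and these gaps rest on the merged exons. The longest annotated transcript is 3331 bp for Prkag2 (6480 bp merged) and 2089 bp for Prkab1 (3066 bp merged). A different length would therefore move these genes relative to the others.

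**Figure D1:**
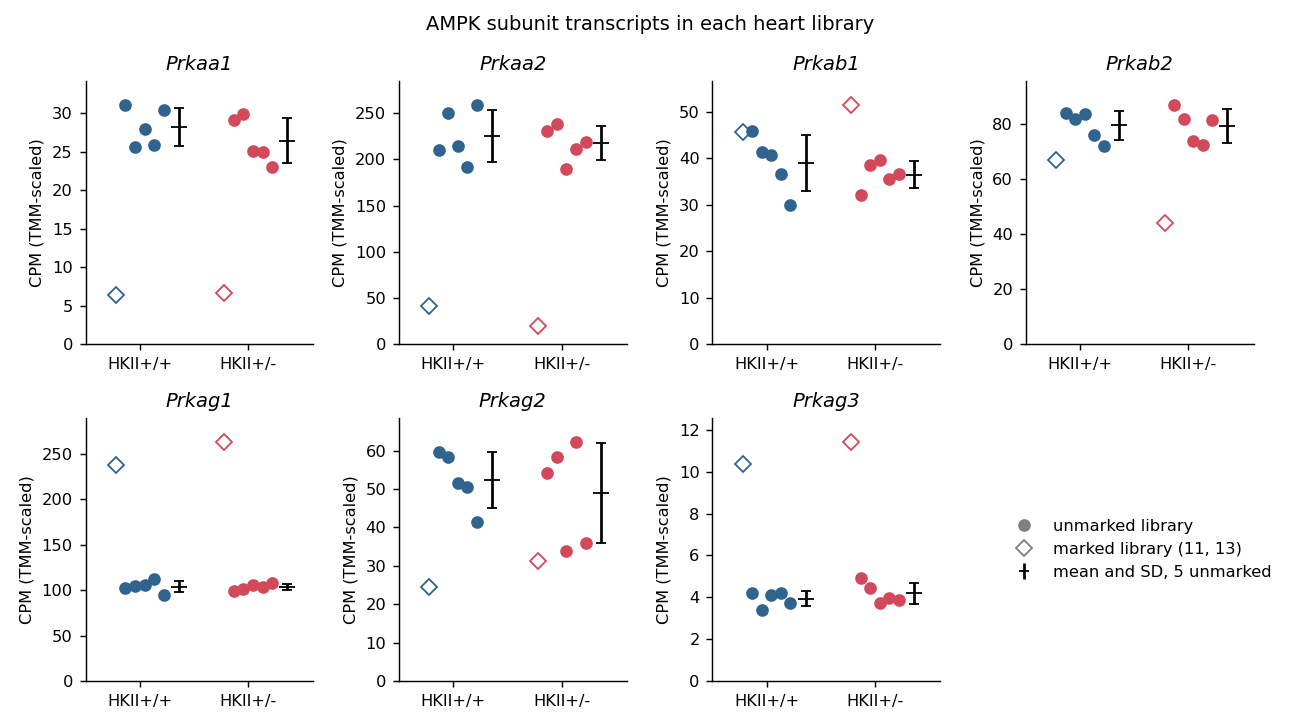
CPM of each subunit gene (y axis from 0, a separate scale in each panel) in the 6 HKII+/+ and 6 HKII+/- libraries, with filled circles for unmarked libraries, open diamonds for the marked libraries 11 and 13, and bars for the mean and SD of the 5 unmarked libraries of a genotype. The genotypes overlap in every panel, and both diamonds lie low for Prkaa1 and Prkaa2 (19.5 and 41.6 CPM against 190.2 or more) and high for Prkag1 and Prkag3.

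Within the alpha class and within the gamma class 1 gene supplied most of the transcript, while the order of the beta pair depended on the length used. A share is the percentage of a class's summed RPKM in 1 library, and needs no scaling between libraries. Prkaa2 made up 82.5 ± 1.59% of the alpha transcript (79.8 to 85.0%, n = 10 unmarked libraries), and Prkaa1 the rest. Prkag1 made up 84.3 ± 2.59% of the gamma transcript (81.7 to 88.7%), Prkag2 13.8 ± 2.54% (9.51 to 16.5%) and Prkag3 1.95 ± 0.217%. In the beta class Prkab2 had 56.0 ± 2.89% (52.4 to 62.0%) and Prkab1 the rest. That beta order turned with the length used: per kilobase of the longest annotated transcript Prkab2 had 46.9% and Prkab1 53.1%, because the longest Prkab1 transcript is shorter than its merged exons, whereas Prkaa2 kept 82.5% and Prkag1 79.1% of their classes. As raw counts, with no length, Prkag1 had 65.7% of the gamma reads and Prkag2 31.7%. Summed by class, per kilobase of merged exon, the transcript came to 33.7 ± 3.17 RPKM for alpha, 27.9 ± 2.14 for beta and 56.6 ± 2.56 for gamma. The beta and gamma sums also depend on the length used, so the classes are not ranked by them.

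**Figure D2:**
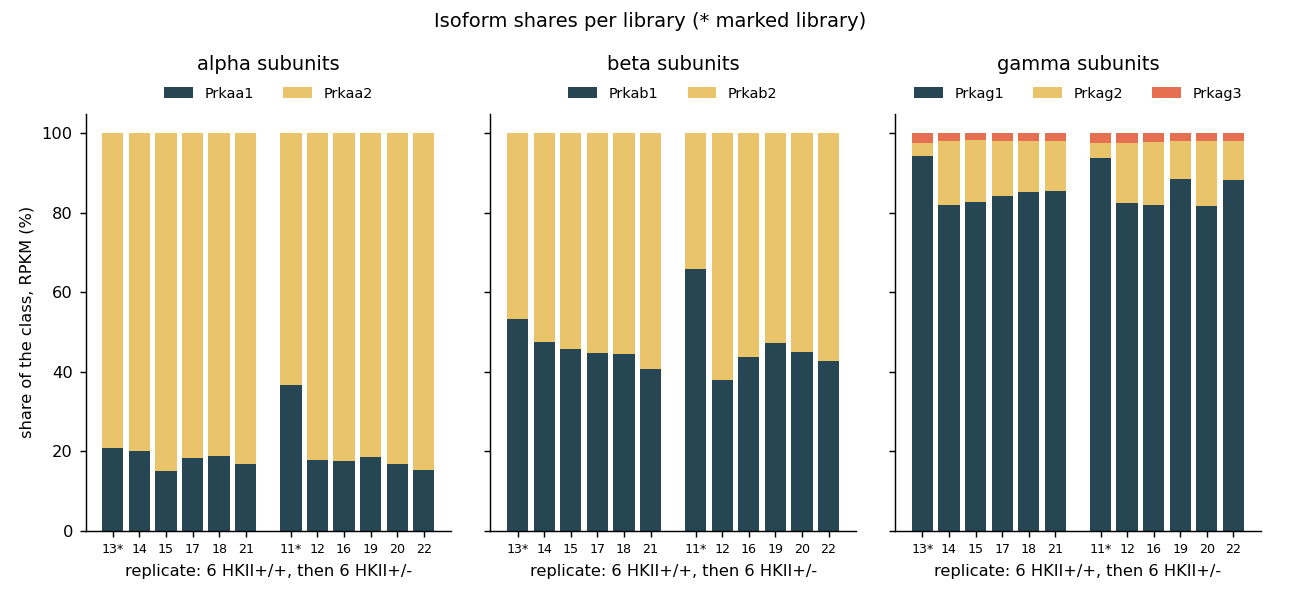
Share of each class's RPKM (y axis, percent) by subunit gene in every library, 6 HKII+/+ on the left and 6 HKII+/- on the right of each panel, with asterisks on the marked libraries. Prkaa2 and Prkag1 take the largest share in all 12 libraries, while Prkab2 falls below Prkab1 in libraries 11 and 13 (34.1% and 46.8%).

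Heterozygosity for Hk2 was compared with the wild type for each subunit, and no subunit passed the test. The count was 0 of 7 at an adjusted p below 0.05 with all 12 libraries, where 0% of the 14107 genes tested passed, and 0 of 7 with the 10 unmarked libraries, where 0.00707% of 14139 genes passed, a single gene that was Hk2 (edgeR quasi-likelihood test, Benjamini-Hochberg adjustment). With 12 libraries edgeR did not call Hk2 itself, so a count of 0 there says little alone. At an unadjusted p below 0.05 the count of subunits was again 0 of 7 in both fits, beside 0.262% and 2.8% of all genes. DESeq2, limma voom and limma voom with sample quality weights also put 0 of 7 below 0.05, adjusted or not, in both sets of libraries. What the data do give is a bound on each difference, and that bound was several times tighter without the marked libraries for Prkaa1, Prkaa2, Prkag1 and Prkag3. Fold changes below are HKII+/- against HKII+/+, and CPM are listed in ascending library number. For the beta genes, log2 fold changes over all 12 libraries were -0.040 ± 0.141 (Prkab1) and -0.075 ± 0.151 (Prkab2). Over the same 12 they were -0.052 ± 0.243 for Prkag2 and 0.119 ± 0.354 for Prkag3.

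Prkaa2, the main catalytic subunit gene of these hearts, stood at 210.7, 249.8, 214.6, 191.5 and 259.0 CPM in the unmarked HKII+/+ libraries and at 230.6, 238.4, 190.2, 210.8 and 218.9 CPM in the unmarked HKII+/- libraries. The ranges overlapped almost entirely, and the lowest value was in HKII+/- replicate 19 and the highest in HKII+/+ replicate 21. On the log2 scale the difference was -0.05 ± 0.09 (SE) with a 95% interval of -0.24 to 0.15 (edgeR adjusted p = 0.9999), so the HKII+/- level lay between 84.4% and 111% of the HKII+/+ level. With the marked libraries, at 41.6 CPM in HKII+/+ replicate 13 and 19.5 CPM in HKII+/- replicate 11, the interval widened to -1.19 to 1.04.

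Prkaa1, the other catalytic subunit gene, stood at 31.1, 25.7, 28.0, 25.8 and 30.4 CPM in the unmarked HKII+/+ libraries and at 29.1, 29.9, 25.1, 24.98 and 23.0 CPM in the unmarked HKII+/- libraries. The lowest 3 values were HKII+/- libraries, and the other 2 HKII+/- libraries lay among the highest HKII+/+ ones, so the ranges overlapped. Its log2 fold change was -0.09 ± 0.09 (95% interval -0.28 to 0.10, edgeR adjusted p = 0.9999), which had the lowest unadjusted p of the 7 genes, 0.303. Over all 12 libraries it was -0.09 ± 0.39.

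Of the beta scaffolds, Prkab2 had 84.1, 81.8, 83.5, 76.02 and 72.0 CPM in unmarked HKII+/+ and 86.9, 81.9, 73.7, 72.5 and 81.5 CPM in unmarked HKII+/- libraries. The genotypes interleaved, and the log2 fold change was -0.0010 ± 0.06, between 90.6% and 110% of the HKII+/+ level. Prkab1 had 45.9, 41.3, 40.7, 36.6 and 29.8 CPM in unmarked HKII+/+ and 32.1, 38.4, 39.6, 35.5 and 36.5 CPM in unmarked HKII+/- libraries. All 5 HKII+/- values lay inside the wider HKII+/+ range, and the log2 fold change was -0.10 ± 0.10 (95% interval -0.31 to 0.12).

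Prkag1, the most abundant gamma subunit gene, was the steadiest of the 7, with a coefficient of variation of 4.69% over the 10 unmarked libraries. It had 102.5, 104.2, 105.5, 112.7 and 94.9 CPM in unmarked HKII+/+ and 99.1, 101.0, 106.1, 103.5 and 107.7 CPM in unmarked HKII+/- libraries. Every HKII+/- value lay within the HKII+/+ range, and the log2 fold change of -0.0050 ± 0.05 placed the HKII+/- level between 92.3% and 107% of the HKII+/+ level. In the 12-library fit the value was 0.04 ± 0.31. Prkag3, the least abundant subunit gene, had 4.21, 3.40, 4.09, 4.19 and 3.73 CPM in unmarked HKII+/+ and 4.94, 4.46, 3.73, 3.97 and 3.87 CPM in unmarked HKII+/- libraries. The highest 2 values were HKII+/- libraries and the others interleaved, and the log2 fold change was 0.10 ± 0.11 with limits of -0.14 and 0.34.

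Prkag2, the gamma subunit gene tied to inherited cardiomyopathy, was the most variable of the 7, with a coefficient of variation of 20.1% over the 10 unmarked libraries. It had 59.6, 58.4, 51.7, 50.6 and 41.3 CPM in unmarked HKII+/+ and 54.1, 58.4, 33.9, 62.3 and 35.9 CPM in unmarked HKII+/- libraries. The HKII+/- values fell into a higher set of 3, overlapping the HKII+/+ libraries, and a lower pair, replicates 19 and 22, below every unmarked HKII+/+ library. Its difference on the log2 scale was -0.10 ± 0.17, between -0.47 and 0.27 (95%, edgeR adjusted p = 0.9999), or between 72.3% and 121% of the HKII+/+ level, the widest bound of the 7 without the marked libraries.

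**Figure D3:**
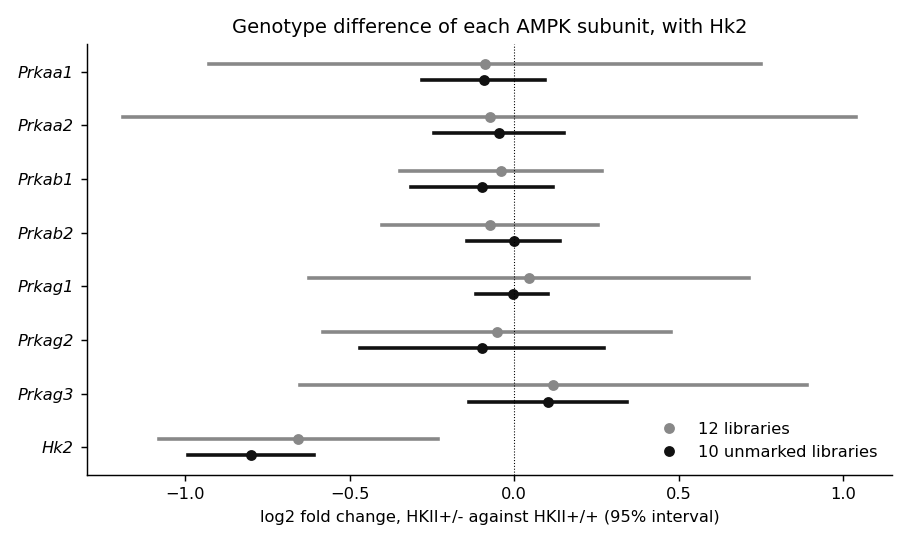
Log2 fold change of HKII+/- against HKII+/+ (x axis) for the 7 subunit genes and Hk2, with points for the edgeR estimate and lines for its 95% interval, gray for 12 libraries and black for the 10 unmarked ones. All 14 subunit intervals cross 0, while both Hk2 intervals lie below 0 (-0.66 and -0.80).

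The isoform balance was compared between genotypes as well, as 1 share per class. In the 10 unmarked libraries the Prkaa2 share averaged 82.8% in HKII+/- and 82.2% in HKII+/+, a difference of 0.565 percentage points (95% interval -1.91 to 2.997, exact two-sided permutation p = 0.603, 0.619 adjusted over 3 shares). The Prkab2 share differed by 1.34 points (-2.86 to 5.82, exact permutation p = 0.5) and the Prkag2 share by -0.774 points (-5.24 to 3.06, exact permutation p = 0.619). With all 12 libraries the differences were -2.18 points for Prkaa2, -1 for Prkab2 and -0.561 for Prkag2, with exact permutation p from 0.823 to 0.872 and an adjusted p of 0.872 for all 3. The signs for Prkaa2 and Prkab2 turned when the marked libraries were left out. The smallest p these designs allow is 0.00216 with 12 libraries and 0.00794 with 10, so the design could have passed the threshold.

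The marked libraries, 1 of each genotype, both lay outside the range of the 10 others, on the same side (TMM-scaled CPM), for 6 of the 7 subunits, and farthest for the catalytic ones. Of all 14088 genes tested in both fits, 70.1% did so, 4513 above and 5365 below, so the count of subunits is near that background. Prkaa2 at 19.5 CPM in HKII+/- replicate 11 was 11.2-fold below the mean of the 5 unmarked libraries of its genotype, and at 41.6 CPM in HKII+/+ replicate 13 it was 5.42-fold below. Prkaa1 was 4.01-fold and 4.43-fold below (6.59 and 6.36 CPM). Prkag1 was 2.55-fold and 2.29-fold above (263.7 and 238.0 CPM), and Prkag3 2.73-fold and 2.64-fold above (11.4 and 10.4 CPM). Prkab2, at 44.2 and 66.8 CPM, and Prkag2, at 31.3 and 24.3 CPM, lay below all 10 unmarked libraries in both. These 6 genes, Prkaa1, Prkaa2, Prkab2, Prkag1, Prkag2 and Prkag3, held their side of the unmarked range with TMM, DESeq2's size factors, upper-quartile factors and no factor. Prkab1 did not: replicate 11 (51.4 CPM) lay above the range with 3 of the 4 scalings and inside it with no factor, and replicate 13 (45.6 CPM) lay inside it with 3 and above it with DESeq2's size factors. Summed by class, the alpha transcript was 3.86 and 6.58 RPKM in these libraries, the beta transcript 25.4 and 28.0 and the gamma transcript 129.2 and 116.0.

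GC content of the transcripts moved with these ratios across all genes. The 95.5% of genes with an annotated transcript were divided into 4 bins of nearly equal size by GC content. In the bin of lowest GC (30.96 to 45.1%) the median log2 ratio to the unmarked libraries of the genotype was -1.27 in replicate 11 and -1.06 in replicate 13, and in the bin of highest GC it was 0.91 and 0.68. Prkaa1 (40.1% GC) and Prkaa2 (40.7%) are in the lowest bin, Prkab2 (46.8%) in the second, Prkag2 (50.1%), Prkag1 (52.8%) and Prkag3 (53.1%) in the third, and Prkab1 (55.0%) in the highest. Prkaa2 lay further down than most genes of its bin: its log2 ratios of -3.44 and -2.41 compare with medians of -1.41 and -1.19 over the 1168 genes in the same bins of GC and length, of which 4.97% and 7.11% were lower. Prkaa1 was less extreme among its 964 peers, of which 30.4% and 11.8% were lower. Prkag2 (-0.59 and -1.08) and Prkag1 (1.35 and 1.19), in the same GC bin but in different length bins, moved in opposite directions. Length moved with the ratios as well. The median log2 ratio was 0.15 and 0.14 in the bin of shortest transcripts and -0.43 and -0.40 in the longest, in replicates 11 and 13. Other measures moved too: the summed heart muscle markers (9 genes) were 197524 and 221877 CPM in replicates 11 and 13. Fibroblast markers (7 genes) summed to 6411 and 2253 CPM there, against 818.7 to 1295 in the unmarked libraries. Airway and lung epithelium markers (7 genes) summed to 279.1 and 0.721 CPM, against 0.313 to 1.78. None of the members of these 3 lists was at 0 in every library. The part of GC content, RNA quality or tissue makeup in the subunit values of these libraries was not tested.

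**Figure D4:**
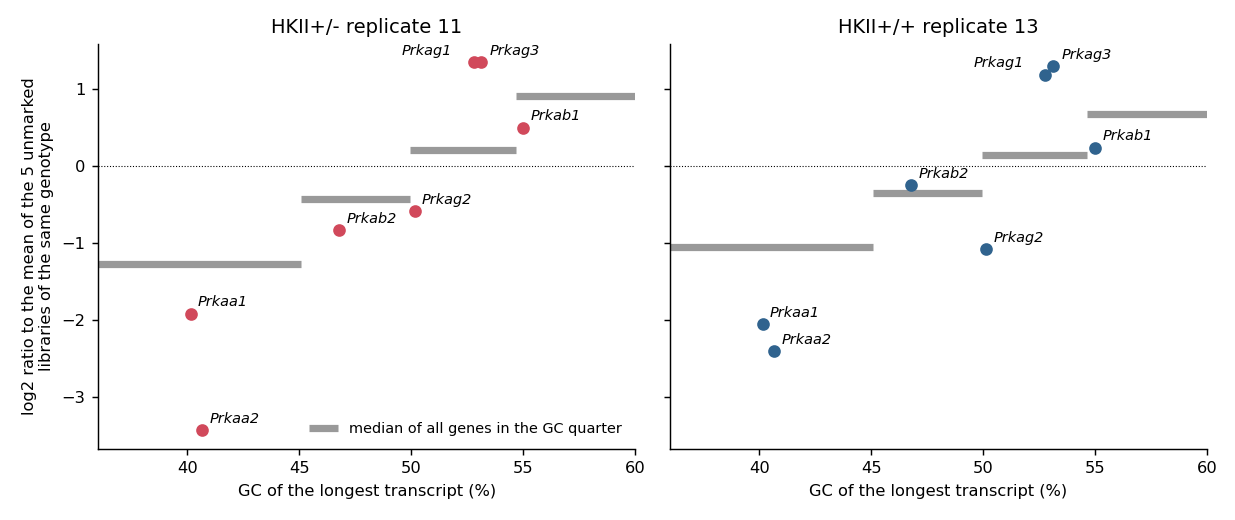
Log2 ratio of each subunit gene in a marked library to the mean of the 5 unmarked libraries of its genotype (y axis) against the GC content of its longest transcript (x axis, percent), with gray bars for the median of all annotated genes in each of 4 bins of GC. Prkaa1 and Prkaa2 lie at the lower left, with Prkaa2 at -3.44 and -2.41, and Prkag1 and Prkag3 at the upper right, between 1.19 and 1.35.

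The spread of Prkag2 among unmarked libraries moved with markers of atrial muscle. The 6 atrial genes (Myl4, Myl7, Sln, Nppa, Bmp10 and Dkk3), none at 0 in every library, summed to 5737, 6248, 3362, 4293 and 2512 CPM in the unmarked HKII+/+ libraries and to 6007, 5794, 338.5, 7239 and 436.7 CPM in the unmarked HKII+/- libraries. Nppa made up most of each sum, with 3659 of 6007 CPM in HKII+/- replicate 12 and 430.9 of 436.7 CPM in HKII+/- replicate 22. Bmp10 was at 0 CPM in HKII+/+ replicate 18, a library that enters the correlation below. By this sum HKII+/- replicates 19 and 22 formed a separate low pair, and they are also the pair with the lowest Prkag2. No correlation was taken across both sets, a division made after seeing the data. Over the other 8 unmarked libraries, Pearson's r between log2 Prkag2 CPM and the log2 atrial sum was 0.931 (exact permutation p = 0.00131, 0.0460 adjusted over the 70 pairs of a subunit and a marker list) and Spearman's rho 0.810 (exact permutation p = 0.0218, adjusted 0.429). The relation passed the adjustment by r and not by rho, and without the 2 libraries farthest from the median atrial sum r was 0.861. Of 14127 genes, 0.51% had an r with the atrial sum at least as high. For the other 6 subunits r lay between -0.35 (Prkaa1) and 0.37 (Prkab1). No correlation within a genotype is given, since 5 of these libraries were HKII+/+ and 3 HKII+/-, and correlations were taken over at least 6. The marked libraries did not follow the relation. Their atrial sums were 17007 CPM (replicate 11) and 5676 CPM (replicate 13), with Prkag2 at 31.3 and 24.3 CPM, below all 10 unmarked libraries.

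Other marker sums moved with Prkag2 in the same 8 libraries. With the 7 skeletal muscle markers r was 0.913 (exact permutation p = 0.00315, adjusted 0.0735) and rho 0.833 (adjusted 0.429). Their sums ran from 3.51 to 4.85 CPM over those 8 libraries, a narrow range at a low level. With the 7 airway and lung epithelium markers r was 0.858 (exact permutation p = 3.47e-04, adjusted 0.0243) and rho 0.952 (adjusted 0.0799), with sums of at most 1.78 CPM, a level of few reads. Prkag2 averaged 54.5 ± 6.71 CPM in the 8 libraries (41.3 to 62.3) against 33.9 in replicate 19 and 35.9 in replicate 22, a mean log2 difference of 0.63, and 5.599% of genes differed by at least as much in that direction. With those 2 libraries also left out, a choice made after seeing the data that leaves 3 HKII+/- and 5 HKII+/+ libraries, the Prkag2 log2 fold change turned to 0.15 ± 0.10 (95% interval -0.08 to 0.39, edgeR adjusted p = 0.758). Prkaa2 and Prkab2 also turned sign there, at 0.01 and 0.02. Whether the share of atrial tissue in a sample set its Prkag2 value was not tested.

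**Figure D5:**
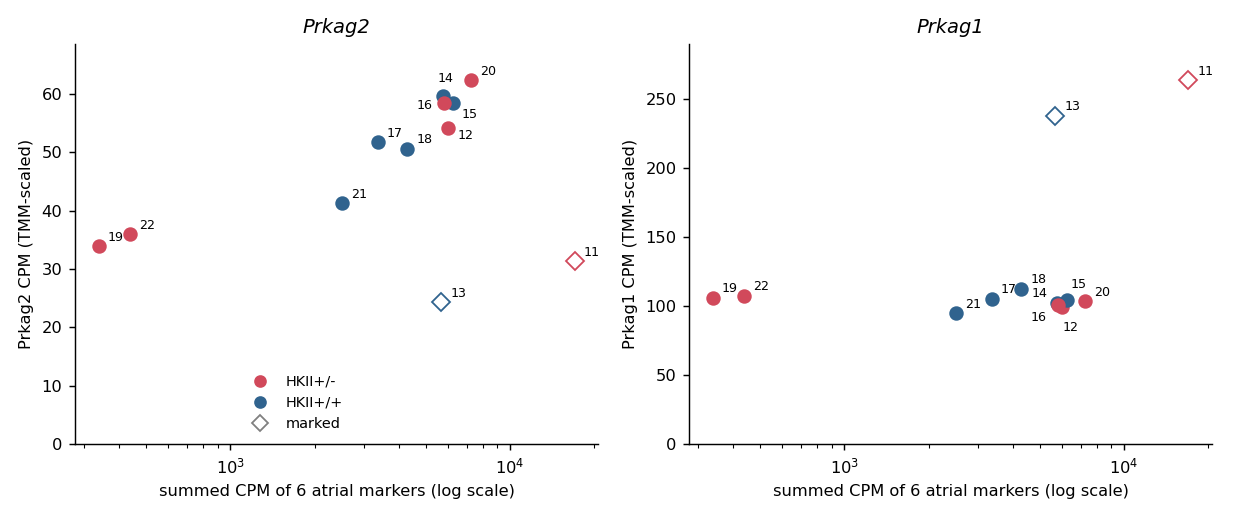
Prkag2 (left) and Prkag1 (right) CPM in each library (y axis from 0) against the summed CPM of 6 atrial markers (x axis, log scale), with library numbers beside the points, filled for unmarked and open for marked libraries. Prkag2 is lowest of the unmarked libraries in replicates 19 and 22 (33.9 and 35.9 CPM), where the atrial sum is 338.5 and 436.7 CPM. Prkag1 stays between 94.9 and 112.7 CPM in the unmarked libraries and is at 263.7 and 238.0 CPM in the marked replicates 11 and 13.

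Subunits of a complex were also compared with each other. None of the 21 pairs of subunit genes passed the adjustment over the 10 unmarked libraries. The strongest by Pearson's r was Prkaa2 with Prkag1, in opposite directions, with r = -0.754 (permutation p = 0.0112, adjusted 0.235), rho = -0.624 (permutation p = 0.0605) and r = -0.744 without the 2 libraries farthest from the median Prkaa2. Prkaa1 with Prkag1 followed at r = -0.679 (permutation p = 0.0272, adjusted 0.285) and was the strongest by rank, at rho = -0.685 (permutation p = 0.0342, adjusted 0.423). Prkab2 with Prkag3 had a rho of 0.648 (permutation p = 0.05004, adjusted 0.423) and an r of 0.496. The pair of catalytic genes, Prkaa1 and Prkaa2, had r = 0.406 (permutation p = 0.244). As a description over the same 10 libraries, the genes most like Prkaa2 in log2 CPM among 12783 were Cdk5rap2 (r = 0.981), Ckap5 (0.974) and Spopl (0.963), and 2.46% of genes had an r above 0.8. Those most like Prkaa1 were Eps15 (0.939), Secisbp2l (0.897) and Adam10 (0.895), with 0.407% above 0.8. All of these values share the libraries and their depth.

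The rest of the pathway was read from 6 lists of 79 genes, of which 77 were tested. The count past the threshold was 0 of 77 with 12 libraries and 0 of 77 with 10 (edgeR, adjusted or unadjusted, beside the shares of all genes given above). Of the 9 kinases that activate AMPK and their partners, 2 had positive and 7 negative log2 fold changes in both fits, with medians of -0.02 and -0.03 beside -0.0010 and -0.0050 for all genes. Over all genes tested, 49.5% of log2 fold changes were positive with 12 libraries and 47.3% with 10, against which the sign counts of the 6 lists are to be read. Stk11, which encodes LKB1, stood at 26.8 ± 1.68 RPKM over the 10 unmarked libraries, with a log2 fold change of -0.02 ± 0.13 in 12 libraries and 0.02 ± 0.06 in 10. Cab39, its scaffold partner MO25, stood at 23.1 ± 1.61 RPKM, with -0.02 ± 0.09 and -0.03 ± 0.07. Tab1, a partner of the kinase TAK1, had -0.07 ± 0.28 and -0.14 ± 0.10. Camkk1, a calcium-dependent kinase, had 0.44 ± 0.44 with 12 libraries, where replicate 11 held 12.8 CPM against 1.94 to 4.96 in the unmarked ones, and 0.11 ± 0.24 with 10.

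Of the 16 phosphatases and other regulators of the complex, 8 were positive and 8 negative with 12 libraries and 9 and 7 with 10, with medians of 0.011 and 0.015. Ppp1ca, a catalytic subunit of protein phosphatase PP1, was the highest at 78.1 ± 4.45 RPKM, and its log2 fold changes were -0.08 ± 0.18 and 0.010 ± 0.06. Ppp1r3c, which targets that phosphatase to glycogen, had 0.03 ± 0.15 and 0.14 ± 0.12. Sesn1, a stress-inducible sestrin that can activate AMPK, had the smallest p of its list in both fits, with -0.16 ± 0.11 and -0.13 ± 0.08. Its HKII+/- values, 136.3 to 158.1 CPM, overlapped the HKII+/+ values, 138.5 to 186.3 CPM, in the unmarked libraries.

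AMPK phosphorylates many substrates. Of 14 in lipid and glucose metabolism, 8 were positive and 6 negative with 12 libraries and 5 and 9 with 10, with medians of 0.03 and -0.03. Acacb, the mitochondrial acetyl-CoA carboxylase whose product restrains fatty acid oxidation, stood at 71.5 ± 6.56 RPKM, with -0.03 ± 0.19 and 0.02 ± 0.08. Txnip, an inhibitor of glucose uptake that AMPK marks for degradation, varied widely, from 297.2 to 669.5 CPM in the unmarked libraries, with -0.16 ± 0.21 and -0.19 ± 0.21. Pfkfb3, which makes the activator of phosphofructokinase, had 0.30 ± 0.29 with 12 libraries, where replicate 11 held 47.0 CPM against at most 30.7 in the unmarked ones, and -0.05 ± 0.18 with 10. Of 13 substrates in growth, autophagy, mitochondria and transcription, 7 were positive and 6 negative with 12 libraries and 6 and 7 with 10. Ppargc1a, the coactivator PGC-1alpha, stood at 33.5 ± 9.06 RPKM with -0.11 ± 0.35 and -0.05 ± 0.21. Mtfr1l, a regulator of mitochondrial shape, had -0.10 ± 0.13 and -0.02 ± 0.05, and Eef2k, a brake on translation elongation, -0.11 ± 0.14 and -0.10 ± 0.08.

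Of the 13 tested AMPK-related kinases, 9 were positive and 4 negative with 12 libraries and 12 and 1 with 10, with medians of 0.03 and 0.02. Snrk, at 25.5 ± 3.43 RPKM, had 0.05 ± 0.26 and 0.02 ± 0.11. Sik1, a salt-inducible kinase, ranged from 29.4 to 145.8 CPM over the unmarked libraries, with 0.08 ± 0.36 and 0.18 ± 0.40. Brsk1, known mainly from neurons, had 0.67 ± 0.61 with 12 libraries, where replicate 11 held 14.3 CPM against 1.43 to 2.89 in the unmarked ones, and 0.12 ± 0.20 with 10, while Nuak2 had 0.28 ± 0.28 and 0.19 ± 0.16. Of the 12 tested enzymes that turn over adenine nucleotides and phosphocreatine, 4 were positive and 8 negative with 12 libraries and 5 and 7 with 10. Ckmt2 and Ckm, the mitochondrial and cytosolic creatine kinases of muscle, stood at 1385 ± 99.0 and 360.9 ± 37.0 RPKM, with log2 fold changes of -0.12 ± 0.15 and -0.11 ± 0.26 in 12 libraries and of -0.0060 ± 0.07 and -0.0020 ± 0.09 in 10. Adk, adenosine kinase, had -0.14 ± 0.12 and -0.03 ± 0.07. Nt5c1a, a nucleotidase that removes AMP, had -0.06 ± 0.15 and 0.10 ± 0.07.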

How the data were processed

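Poly(A) RNA of 12 hearts was sequenced as single-end reads, per the labels' protocols. STAR 2.4.0, featureCounts 1.4.4 and the build mm10, or GRCm38, are named in the submitters' processing notes. Neither strand setting nor annotation release is given in the sources used here. The authors deposited raw read counts, 1 table per library with 1 row per symbol, and no normalization was applied to them. Depth sets the precision of low genes.

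Each title states the genotype, which set the groups. Counts were fitted in edgeR 4.0.16 (glmQLFit, glmQLFTest, TMM factors, filterByExpr with a minimum count of 10, Benjamini-Hochberg adjustment at 0.05), with all 12 libraries and again with the 10 unmarked ones, with no covariate. CPM use the TMM factors of all 12 libraries. RPKM divide CPM by the merged exons of GENCODE vM21. Of 24061 symbols, 22707 matched 1 annotated gene, 42 several and 1312 none. Shares were compared by exact permutation over the libraries, with 95% intervals from inverting that test. DESeq2 1.42.0, limma 3.58.1, other scalings and filters, and each library left out in turn were alternatives. The fits were run on simulated counts with known changes, of which the 12-library fit recovered fewer than the 10-library fit.

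Pathway and marker lists, and the members, were chosen with earlier results of these data known. Named genes are the 7 subunits, Hk2, for each pathway list the 2 with the highest mean RPKM and the 1 with the smallest p in each fit, and the 3 genes most correlated with each alpha subunit (mean log2 CPM of at least 0). One gene that this rule names is not reported here.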

Additional observations from a re-analysis of the deposited data

Results flagged for a closer look

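Within each genotype's 6 libraries and 5 unmarked libraries, the highest and lowest values of each subunit's CPM and share were compared with the gap to the next value, and 15 of 56 sets held a value set far apart (a gap above 0.625 of the range of 6). Chance flags about 1 in 20 such sets, and the sets here are not independent, since shares of a class are linked and the libraries recur. All 15 values belonged to the libraries that the submitters marked, and none of the sets of 5 unmarked libraries held one. HKII+/- replicate 11 was apart with the lowest Prkaa1 (6.59 CPM), Prkaa2 (19.5 CPM) and Prkab2 (44.2 CPM) and the highest Prkag1 (263.7 CPM) and Prkag3 (11.4 CPM) of its genotype. Its shares were apart for Prkaa1 (36.7%) and Prkaa2 (63.3%) of alpha and for Prkab1 (65.9%) and Prkab2 (34.1%) of beta. HKII+/+ replicate 13 was apart with the lowest Prkaa1 (6.36 CPM) and Prkaa2 (41.6 CPM) and the highest Prkag1 (238.0 CPM) and Prkag3 (10.4 CPM), and with shares of 94.3% for Prkag1 and 3.24% for Prkag2 of gamma.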

How the results depend on the processing

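No paired analysis was possible because the genotypes share no replicate number. Of the 7 subunits, 0 passed the threshold in any fit, and 55 of 56 log2 fold changes kept their sign under 8 other settings with 12 libraries and 60 of 63 under 9 with 10. With 12 libraries, limma voom with sample quality weights called 2 genes and reversed the sign of Prkag1 (-0.028), Stk11 (0.011), Pfkfb3 (-0.030), Snrk (-0.030) and Nt5c1a (0.059). With 10 libraries, DESeq2 called 3 genes, and quality weights reversed Ppp1ca (-0.024), Acacb (-0.040) and Snrk (-0.031). Leaving out HKII+/- replicates 19 and 22 as well, chosen after seeing the data, reversed Prkaa2 (0.011), Prkab2 (0.020), Prkag2 (0.15), Stk11 (-0.046), Ppp1ca (-0.068), Acacb (-0.10), Pfkfb3 (0.17) and Snrk (-0.087). Without both marked libraries the share differences were 0.565 points for Prkaa2 and 1.34 for Prkab2. The cause was not tested.

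Leaving out each library in turn moved the share differences over -3.22 to 1.06 points for Prkaa2, -2.81 to 2.77 for Prkab2 and -2.38 to 1.05 for Prkag2, and the genes called with 10 libraries from 0 to 2. Log2 fold changes that changed sign ranged, with 12 libraries, over Prkaa1 -0.28 to 0.11, Prkaa2 -0.28 to 0.17, Prkab1 -0.14 to 0.017, Prkab2 -0.13 to 0.039, Prkag1 -0.29 to 0.34, Prkag2 -0.17 to 0.041, Prkag3 -0.24 to 0.48, Stk11 -0.077 to 0.096, Cab39 -0.043 to 0.023, Camkk1 -0.13 to 0.70, Tab1 -0.36 to 0.17, Ppp1ca -0.15 to 0.057, Ppp1r3c -0.076 to 0.11, Acacb -0.15 to 0.15, Ppargc1a -0.28 to 0.095, Snrk -0.19 to 0.28, Sik1 -0.11 to 0.21, Brsk1 -0.31 to 1.14, Ckm -0.23 to 0.070, Nt5c1a -0.11 to 0.10, and with 10 libraries over Prkaa2 -0.10 to 0.011, Prkab2 -0.040 to 0.029, Prkag1 -0.034 to 0.024, Prkag2 -0.20 to 0.0060, Stk11 -0.0090 to 0.067, Cab39 -0.055 to 0.034, Camkk1 -0.12 to 0.24, Ppp1ca -0.033 to 0.037, Acacb -0.043 to 0.070, Pfkfb3 -0.14 to 0.088, Ppargc1a -0.18 to 0.15, Snrk -0.070 to 0.088, Sik1 -0.052 to 0.37, Brsk1 -0.054 to 0.24, Ckmt2 -0.046 to 0.024, Ckm -0.083 to 0.037, Adk -0.054 to 0.015. The ends of the 12-library ranges of all subunits but Prkab2 came from leaving out replicate 11 or replicate 13 alone. For Prkab2 the high end came from leaving out replicate 11 and the low end from leaving out HKII+/- replicate 12.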
